A study of Triticum aestivum with 14 samples.

Results

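Sucrose synthase and invertase are the enzymes that open sucrose for use in a plant sink, and their genes were followed here through wheat (Triticum aestivum) florets and floral organs. A gene was taken as sucrose synthase when its description in the deposited table named that enzyme, and as invertase when its gene ontology terms held beta-fructofuranosidase activity. Genes described as fructan enzymes or fructosyltransferases were removed. This gave 48 of 100591 genes, 22 for sucrose synthase and 26 for invertase, and all 48 passed the filter on low counts in every comparison.

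RNA was sequenced in bulk from untreated central spikelets taken 21 days after the terminal spikelet stage, in 14 libraries. They fall into the groups F1 (n = 3), F5 (n = 3), Lemma (n = 2, numbered 1 and 3), Anther (n = 3) and Ovary (n = 3). The study set out to compare a fertile with an abortive floret of these spikelets, and the lemma, anther and ovary of the fertile floret, but the labels do not say which of F1 and F5 was fertile. All libraries carry the further label N50, which is not explained, and no label says that the replicates of a group came from separate plants, so p-values measure the spread between these samples, which may be technical.

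Sucrose synthase splits sucrose reversibly with UDP into fructose and UDP-glucose, the sugar donor for cellulose and, through further steps, for starch. Invertase hydrolyses sucrose irreversibly into glucose and fructose, in the cell wall or the vacuole for the acid forms carrying this ontology term. In cereals both enzymes are known from sink organs such as anthers, where pollen fills with starch, and young ovaries. Bread wheat is hexaploid, so most genes exist as A, B and D copies (homoeologs) on chromosomes of the same number.

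The sucrose synthase genes lie on 12 chromosomes or unplaced sequence names and form mostly sets of 3 copies. Set here by chromosome and order, 6 sets hold 3 genes each: a proximal and a distal set on 2A, 2B and 2D, a set on 4A, 4B and 4D, and on group 7 a 7A/7B/7D set, a second such set far along the arm, and a set of 7A, 7D and the end of 4A. In the last of these the 4A gene was taken as the copy missing from 7B, because the end of the long arm of 4A carries a segment known to come from the short arm of 7B. The 7A and 4A genes of that set, TraesCS7A02G040900 and TraesCS4A02G446700, are the only sucrose synthase genes whose descriptions cite 1 shared protein entry. The proximal and distal group 2 sets followed from the order of genes alone. The 4A/4B/4D set and the 3 group 7 sets were drawn after the values were seen.

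The invertase genes are arranged differently. A cluster near the end of the short arms of group 6 holds 11 of the 26 genes, 3 within 36.4 kb on 6A, 4 within 141.4 kb on 6B and 4 within 79.5 kb on 6D, with 10 of the 11 on the minus strand. Another 7 genes lie near the end of 7A (3 within 646.7 kb), on 7D (1) and at the end of 4A (3 within 532.6 kb). Since the chromosomes hold unequal numbers, no copies were paired for shares and both groups are described as clusters. Of the 26 invertase genes only 6 also carry the enzyme number of invertase (EC 3.2.1.26), and none of the 18 genes in those clusters does. Enzymes that build or break down fructan belong to the same protein family as invertase. The sucrose:fructan 6-fructosyltransferase gene TraesCS4A02G485400 starts 178.3 kb from the start of the cluster gene TraesCS4A02G484800. The sucrose:sucrose 1-fructosyltransferase gene TraesCS7D02G008700, removed by the rule, starts 594.2 kb from TraesCS7D02G010000. Which of the cluster genes encode a true invertase is therefore not settled by the annotation, and "invertase" below means the annotated activity. Positions are those of the deposited table, whose wheat genome build is not given in the sources used here. Neighbouring duplicates and homoeologs are alike in sequence, and how the authors counted reads that fit several genes is not given, so the split of reads between such genes is uncertain.

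Total counts per library were 75016595 to 79847721 in F1 and 100415586 to 105526441 in F5, so depth differed along with the floret group. In the organs they were 76441070 to 103924952. The organ labels were checked against marker genes by summed FPKM, the authors' fragment counts scaled to gene length and library size. The 90 chlorophyll a-b binding protein genes, which mark green tissue, summed to between 11348 and 13750 FPKM in the Lemma libraries, against 464 to 683 in those of Anther and 370 to 427 in those of Ovary. Of the 2 pollen or strictosidine synthase genes, 1 was detected in each of F1, F5, Anther and Ovary, though not the same gene in every group. Their sum was 7.94 to 20.5 FPKM in Anther and at most 0.123 in any other library, with both at 0 in Lemma. The 1 gene described with WM27, taken as an ovary marker, stood at 8.09 to 8.62 FPKM in Ovary and at 0 in Lemma and Anther. In the florets the lists differed as well: F5 held 0.0566 to 0.16 FPKM of the ovary marker against 4.73 to 6.36 in F1, the chlorophyll a-b binding protein genes summed to 13404 to 15344 FPKM in F5 against 6152 to 15034 in F1, and the 141 histone H4 genes, high in dividing tissue, summed to 231 to 245 FPKM in F5 against 1625 to 2173 in F1. F1 replicate 1 stood apart from the other F1 libraries, with 15034 FPKM of chlorophyll a-b binding protein transcripts against 9089 and 6152. In these bulk samples fewer cells of a type and less RNA per cell cannot be told apart, and the part of these differences in the results below was not tested.

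Both kinds of transcript were most abundant in Anther or F5, and the balance between them differed between groups. Summed over its 22 genes, sucrose synthase reached 236 ± 22.3 FPKM in F1, 425 ± 38.0 in F5, 645 ± 62.2 in Anther and 280 ± 45.0 in Ovary (SD, n = 3 each), and 165 ± 16.1 in Lemma (n = 2). Summed over its 26 genes, invertase reached 126 ± 11.4 FPKM in F1, 539 ± 107 in F5, 545 ± 38.0 in Anther and 166 ± 19.0 in Ovary (n = 3 each), and 213 ± 22.9 in Lemma (n = 2). The ratio of invertase to sucrose synthase FPKM was above 1 in every F5 library (1.10 to 1.52) and in both Lemma libraries (1.12 in the lower). It was below 1 in every F1 (0.491 to 0.576), Anther (0.790 to 0.886) and Ovary library (0.514 to 0.789). In F5 and Lemma the group 6 cluster made up 94.0% and 70.9% of the invertase sum, and none of its genes carries the invertase enzyme number. The ratio above 1 in these groups thus rests on genes whose activity the annotation does not settle. The genes that carry the number are given apart below. These sums are descriptions of chosen genes and carry no test.

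**Figure D1:**
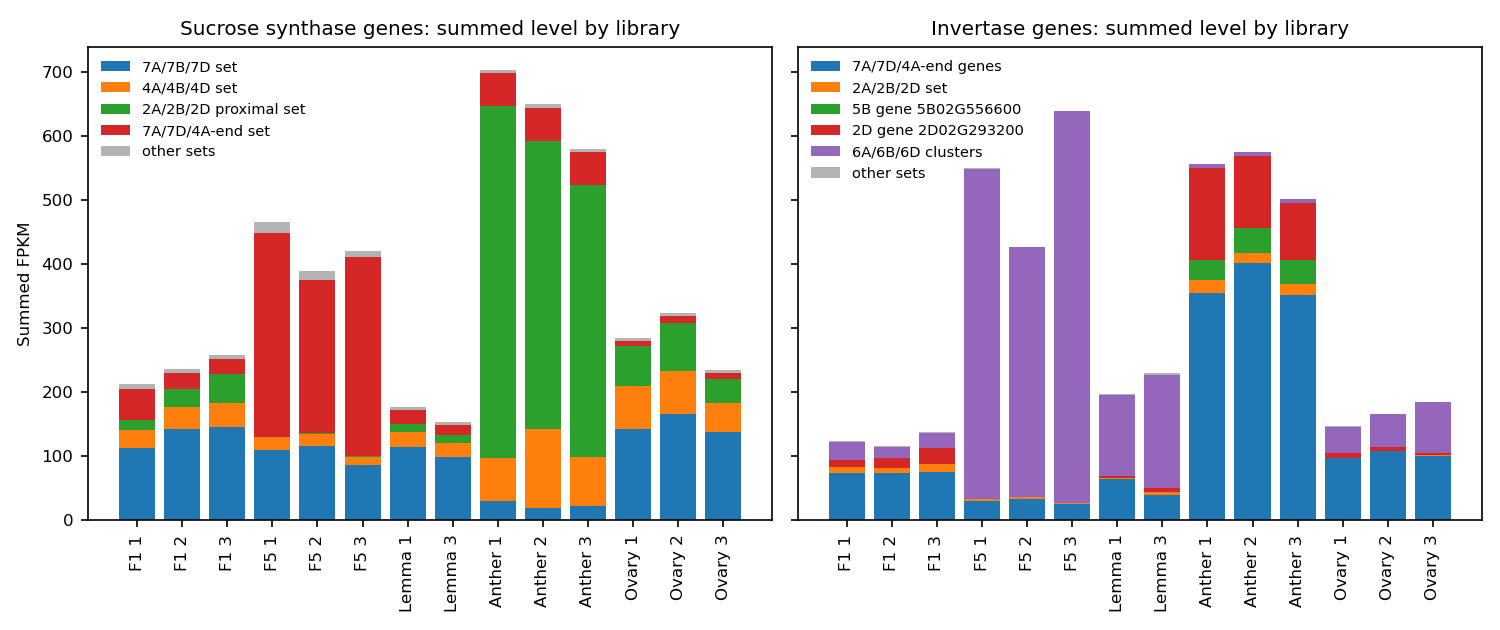
Summed FPKM of the sucrose synthase genes (left) and the invertase genes (right) in each of the 14 libraries, stacked by set of copies or cluster, on a linear axis from 0. The 7A/7D/4A-end set fills most of the sucrose synthase sum in F5 and the 2A/2B/2D proximal set in Anther, while the group 6 clusters fill nearly all of the invertase sum in F5.

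One set of copies or cluster led each enzyme in each group, and over the 5 groups the lead was held by 3 sets for sucrose synthase and by 2 clusters for invertase. The 7A/7B/7D set made up 56.7% of sucrose synthase FPKM in F1, 64.4% in Lemma and 52.7% in Ovary. In F5 the 7A/7D/4A-end set made up 68.1%, and in Anther the 2A/2B/2D proximal set made up 73.7%. For invertase, the 7A/7D/4A-end cluster led in F1 (59.1%), Ovary (61.2%) and Anther (67.9%), and the group 6 cluster led in Lemma (70.9%) and F5 (94.0%). Counted by gene, 42 of the 48 reached 1 FPKM in at least 1 group. Of these 42, 19 were highest in F5, 13 in Anther, 6 in Ovary, 3 in Lemma and 1 in F1. The highest group was not counted over all genes, so these numbers have no share to stand beside. Some low-level genes, such as the distal group 2 set, reached 1 FPKM only in F5 and had to be highest there.

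**Figure D2:**
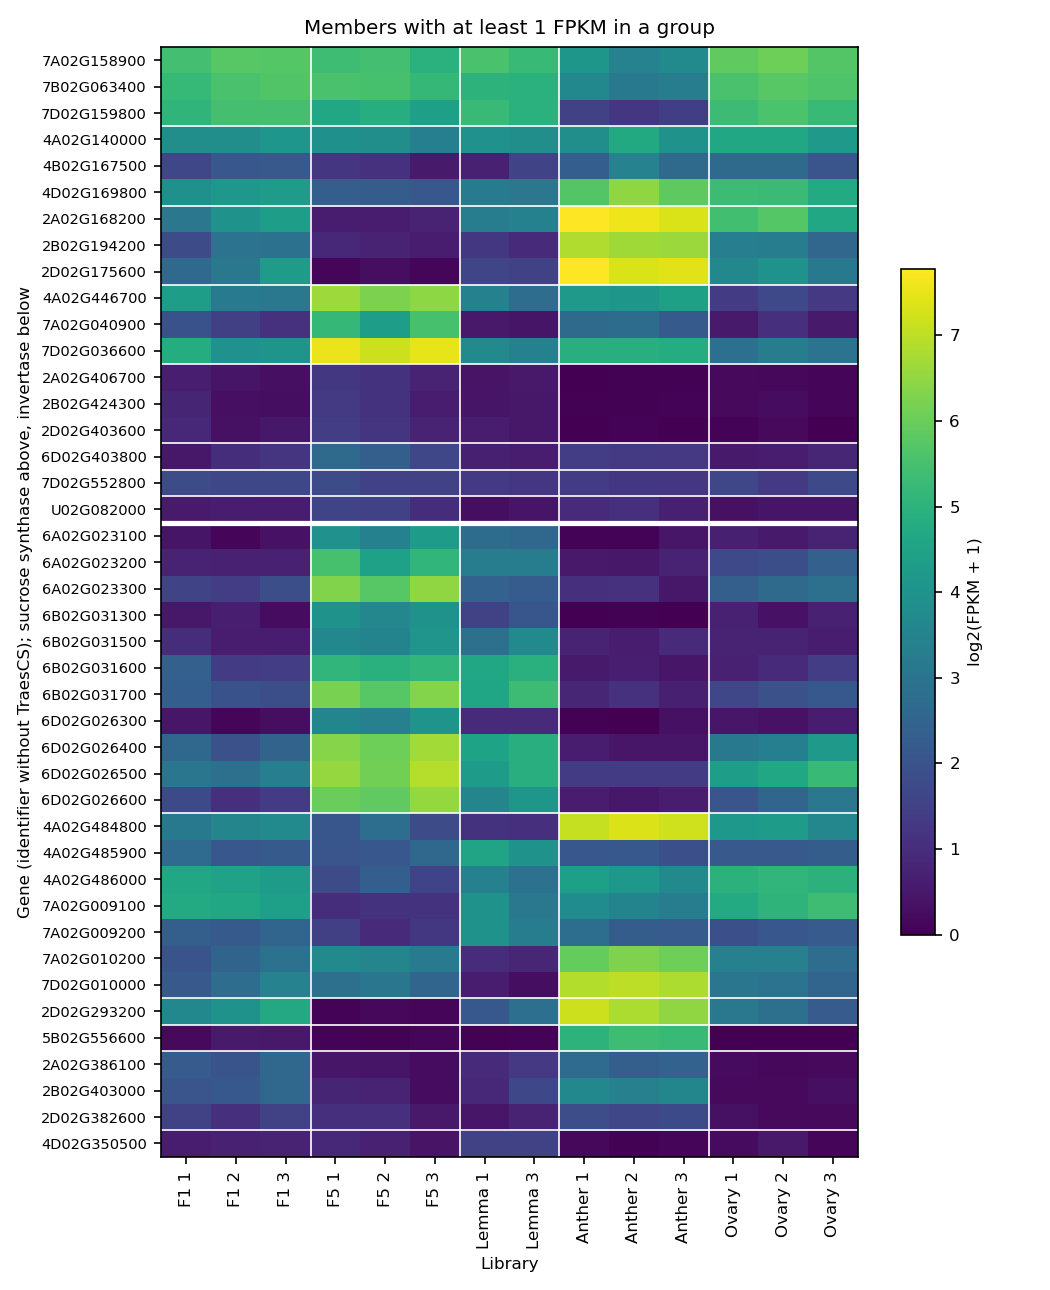
Level of each of the 42 genes with at least 1 FPKM in a group, as log2(FPKM + 1), in each of the 14 libraries, with white lines between sets and between groups. Bright blocks mark the 7A/7D/4A-end sucrose synthase set and the group 6 invertase cluster in F5, and the 2A/2B/2D proximal set, 3 genes of the 7A/7D/4A-end cluster and TraesCS2D02G293200 in Anther.

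F1 and F5, taken as the floret samples, were compared to ask how fertile and abortive florets differ, and any other difference between them cannot be told apart from fertility. A gene was called when its Benjamini-Hochberg adjusted p over all genes, from edgeR's quasi-likelihood test on the counts, was under 0.05 and its change was at least 2-fold. Of all genes tested 24.1% were called, 10.4% higher and 13.7% lower in F5. Of 22 sucrose synthase genes 12 were called (54.5%), 7 higher and 5 lower, and the median of their log2 fold changes was 0.27. Of 26 invertase genes 21 were called (80.8%), 12 higher and 9 lower, with a median of 0.23 beside a median of -0.05 over all genes tested. Without F1 replicate 1 the calls came to 14 and 21. Of the 12 invertase genes called higher, 11 were the group 6 cluster. These are neighbouring duplicates and homoeologs with an uncertain split of reads, so the share of invertase genes called does not count separate observations. Fold changes come from counts under trimmed-mean scaling, which sets the median of well-expressed genes 0.265 higher on the log2 scale in F5 over F1 than FPKM does. No called gene of either kind had the opposite direction on FPKM in any of the 4 comparisons.

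The sucrose synthase genes that rose in F5 were led by the 7A/7D/4A-end set, and all 3 of its copies rose. TraesCS7D02G036600 (7D:18678820-18684207, plus strand) stood at 27.1, 14.2 and 15.4 FPKM in the F1 libraries and at 185, 145 and 179 in F5. The groups were far apart, and F5 was also above every organ library, the highest of which was an Anther library at 28.8 FPKM. Its log2 fold change was 3.42 (SE 0.33, adjusted p = 0.001). The 4A copy TraesCS4A02G446700 (4A:714175903-714181005, minus strand) went from 19.0, 8.06 and 7.62 FPKM in F1 to 97.8, 74.9 and 87.5 in F5, again without overlap. Its log2 fold change was 3.16 (SE 0.43, adjusted p = 0.00286), and 3.78 without F1 replicate 1, the F1 library in which all 3 copies were highest. The 7A copy TraesCS7A02G040900 (7A:19002179-19007777, plus strand) was the least abundant of the set, at 1.96 ± 0.891 FPKM in F1 and 33.0 ± 12.8 in F5 (SD, n = 3). It had the largest log2 fold change of the sucrose synthase genes that rose, 4.33 (SE 0.50, adjusted p = 0.00169).

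The sucrose synthase genes that fell most were the 3 copies of the 2A/2B/2D proximal set, the same set that led in Anther. TraesCS2A02G168200 (2A:121141338-121145857, minus strand) stood at 7.42, 14.5 and 19.1 FPKM in F1 and at 0.545, 0.554 and 0.704 in F5. All F5 libraries lay well under the lowest F1 library, and the F1 libraries spread widely among themselves, with replicate 1 lowest. The log2 fold change was -4.22 (SE 0.36, adjusted p = 0.000665). TraesCS2D02G175600 (2D:119066592-119072213, minus strand) fell further, from 10.5 ± 6.92 to 0.127 ± 0.0781 FPKM, a log2 fold change of -6.05 (SE 0.65, adjusted p = 0.00133) and -5.43 without F1 replicate 3, its highest library. The 2B copy TraesCS2B02G194200 (2B:171030105-171036053, minus strand) fell less, from 5.23 ± 2.45 to 0.669 ± 0.155 FPKM (adjusted p = 0.00412 for a log2 fold change of -2.69, SE 0.41). Histone H4 transcripts and the ovary marker were lower in F5 as well, at the levels given above, and their part in the fall of this set was not tested. The pollen or strictosidine synthase genes were at most 0.123 FPKM in either floret.

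In the 7A/7B/7D set, the leading set in F1, no copy was called. TraesCS7A02G158900 measured 49.3 ± 5.56 FPKM in F1 and 38.0 ± 6.60 in F5, with overlapping libraries and a log2 fold change of -0.11 (SE 0.17, adjusted p = 0.64). TraesCS7B02G063400 had 43.9 ± 7.27 and 42.1 ± 5.67 FPKM, and TraesCS7D02G159800 40.3 ± 6.28 and 23.9 ± 3.97 FPKM with libraries that did not overlap (log2 fold change -0.49, SE 0.17, adjusted p = 0.0631). In the 4A/4B/4D set, which the naming rule did not select and which was singled out after its values were seen, the copies diverged. The 4D copy TraesCS4D02G169800 fell from 14.0, 16.8 and 18.3 FPKM to 4.16, 3.94 and 3.36, without overlap (log2 fold change -1.83, SE 0.14, adjusted p = 0.000492), while the 4A copy TraesCS4A02G140000 was at 14.1 ± 1.52 and 12.2 ± 2.55 FPKM (a log2 fold change of 0.05 with SE 0.17, adjusted p = 0.837). The remaining calls among sucrose synthase genes concerned low-level genes, such as TraesCS2A02G406700 of the distal group 2 set, which rose from 0.396 ± 0.156 to 1.08 ± 0.353 FPKM (adjusted p = 0.0192).

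**Figure D3:**
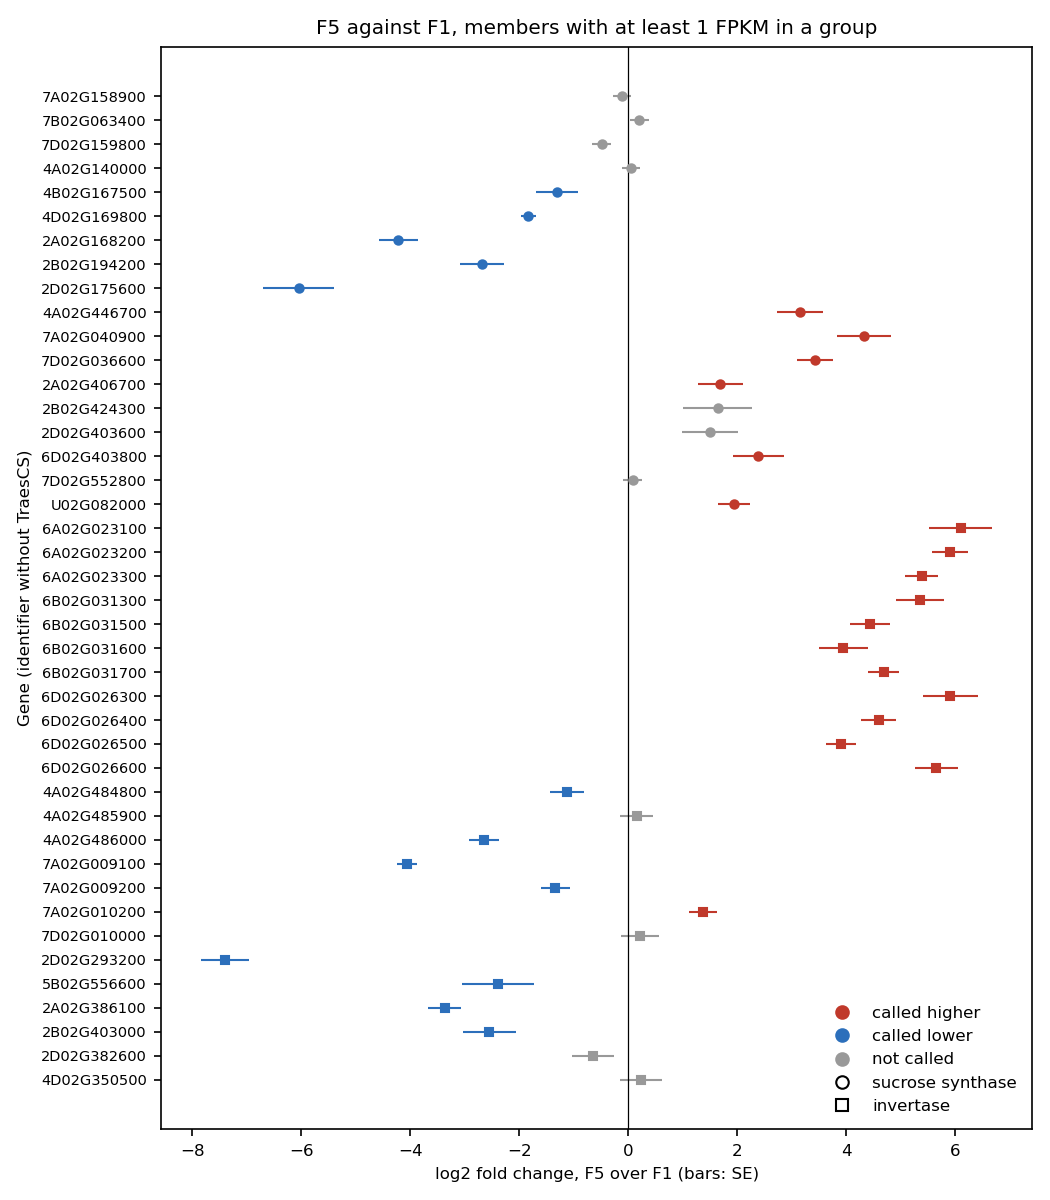
Log2 fold change of F5 over F1 for the 42 genes with at least 1 FPKM in a group, from edgeR's fit on counts, with bars for the standard error. Circles are sucrose synthase and squares invertase genes, red called higher, blue called lower and grey not called. The 11 group 6 invertase genes form a block between 3.91 and 6.11, and TraesCS2D02G293200 lies farthest to the left at -7.40.

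Among invertase genes the rise in F5 was carried by the group 6 cluster, all 11 members of which were called higher, beside 10.4% of all genes. Their log2 fold changes ran from 3.91 to 6.11. TraesCS6D02G026500 (6D:10101171-10104340, minus strand), the most abundant in F5, stood at 7.35, 6.34 and 8.94 FPKM in F1 and at 92.3, 68.9 and 119 in F5. The groups did not overlap, and F5 replicate 2 was the lowest F5 library for each of the 11 genes. The log2 fold change was 3.91 (SE 0.27, adjusted p = 0.000429). Next to it TraesCS6D02G026400 went from 4.14 ± 1.19 FPKM in F1 to 83.2 ± 18.2 in F5, TraesCS6A02G023300 from 2.11 ± 0.508 to 73.3 ± 18.0, TraesCS6D02G026600 from 1.68 ± 0.643 to 70.8 ± 18.1 and TraesCS6B02G031700 from 3.19 ± 0.726 to 68.6 ± 13.9 (adjusted p from 0.000276 to 0.000441). The largest log2 fold change belonged to a gene that was low in F1, TraesCS6A02G023100 (6A:11554651-11558118, minus strand), at 0.351, 0.0836 and 0.307 FPKM in F1 and 14.3, 9.61 and 18.7 in F5 (6.11, SE 0.58, adjusted p = 0.000927). TraesCS6B02G031600 gave 3.95 (SE 0.45, adjusted p = 0.00167) and 4.64 without F1 replicate 1, in which it stood at 4.22 FPKM against 1.59 and 1.64. As a sum the cluster went from 18.3 to 27.9 FPKM in the F1 libraries to 391 to 613 in F5. The chlorophyll a-b binding protein sum of F5 had a higher mean than that of F1 (14621 against 10092 FPKM) with overlapping libraries, and its part in the rise of the cluster was not tested. The fructan 1-exohydrolase gene TraesCS6A02G060700 (1-FEHw1), removed by the rule and 21070.3 kb from the nearest 6A member, also stood higher, at 36.7 ± 3.61 FPKM in F1 and 111 ± 25.0 in F5.

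The invertase genes that fell in F5 lay outside that cluster. TraesCS2D02G293200 (2D:375592753-375596635, plus strand), 1 of the 6 genes with the invertase enzyme number, stood at 11.3, 14.6 and 24.6 FPKM in F1 and at 0.0469, 0.119 and 0.073 in F5. It was close to absent in every F5 library. Its log2 fold change of -7.40 (SE 0.44, adjusted p = 0.000302) was the largest of any member in this comparison. In the 7A/7D/4A-end cluster 4 of 7 genes fell and 1 rose. TraesCS7A02G009100 (7A:3982822-3986635, minus strand) went from 25.8, 24.0 and 19.9 FPKM to 1.04, 1.21 and 1.22 (adjusted p = 0.000176 for a log2 fold change of -4.07), and TraesCS4A02G486000 (4A:739415334-739419007, plus strand) from 23.6, 21.3 and 18.7 to 2.51, 4.01 and 1.99 (log2 fold change -2.65, SE 0.27, adjusted p = 0.00122). These 2 were among the most abundant invertase genes of F1, and neither overlapped between the groups. The other gene removed by the rule, the 1-fructosyltransferase gene TraesCS7D02G008700 on the minus strand of 7D, stood at 40.0 ± 1.91 FPKM in F1 and 1.94 ± 0.285 in F5. TraesCS7A02G010200 was the cluster gene that rose, from 4.81 ± 1.76 to 10.3 ± 1.73 FPKM (a log2 fold change of 1.38 with SE 0.26, adjusted p = 0.0088), though limma on log2(FPKM + 1) put it just short of 2-fold (0.99).

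Split by enzyme number, 4 of the 6 invertase genes that carry it were called lower in F5 and the other 2 were not called (median log2 fold change -2.47). Of the 20 without it, 12 were called higher and 5 lower, with a median of 3.93, beside 10.4% higher and 13.7% lower over all genes. Of the 12 that were higher, 11 were the group 6 cluster. In the 7A/7D/4A-end cluster, also without the number, 1 was higher and 4 were lower. A low-level pair on 7A and 7D gave 0 higher and 1 lower. The rise of genes without the number was thus mainly that of 1 cluster. Among the 6, beside TraesCS2D02G293200, the 2A and 2B genes of a group 2 set fell. These were singled out after their values were seen: TraesCS2A02G386100 went from 3.91 ± 0.993 to 0.311 ± 0.0929 FPKM (adjusted p = 0.000796) and TraesCS2B02G403000 from 3.91 ± 1.10 to 0.553 ± 0.306 (adjusted p = 0.00872). Their 2D partner TraesCS2D02G382600 was at 1.63 ± 0.442 and 0.872 ± 0.363 FPKM and was not called (adjusted p = 0.233).

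A few F5 calls lay near the threshold and were lost when any of several libraries was left out, while the direction stayed. TraesCS4A02G484800, an Anther-leading gene at 10.2 ± 2.09 FPKM in F1 and 3.89 ± 1.83 in F5 (log2 fold change -1.13, SE 0.32, adjusted p = 0.0336), was not called without F1 replicate 2 (adjusted p = 0.0903), F1 replicate 3 (0.0906), F5 replicate 1 (0.115) or F5 replicate 3 (0.0791), with log2 fold changes of -0.89 to -1.08 in these fits. TraesCS4B02G167500, the 4B sucrose synthase copy at 2.99 ± 0.719 and 0.999 ± 0.456 FPKM (log2 fold change -1.31), missed the adjusted p without F1 replicate 2 (0.102), F1 replicate 3 (0.0943) or F5 replicate 2 (0.0811), at log2 fold changes of -1.22 to -1.41, and fell short of 2-fold without F5 replicate 3 (log2 fold change -0.99). TraesCS2A02G406700 (log2 fold change 1.69) was not called without F1 replicate 2 (0.0652), F5 replicate 1 (0.0694) or F5 replicate 2 (0.0588), though its log2 fold change stayed at 1.48 to 1.65. TraesCS5B02G556600, at 0.347 ± 0.181 and 0.0522 ± 0.0209 FPKM (log2 fold change -2.39), was not called without F1 replicate 2 (0.102), F1 replicate 3 (0.0872), F5 replicate 1 (0.0871), F5 replicate 2 (0.0862) or F5 replicate 3 (0.0538), at log2 fold changes of -2.09 to -2.70.

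The organs of the fertile floret were compared in a single fit. In Anther against Lemma 51.9% of all genes were called, 25.2% higher and 26.7% lower in Anther. Of 22 sucrose synthase genes 10 were higher and 7 lower, and of 26 invertase genes 8 were higher and 15 lower. In Anther against Ovary 43.5% of all genes were called (21.9% higher, 21.7% lower), with 10 sucrose synthase genes higher and 5 lower and 8 invertase genes higher and 9 lower. In Ovary against Lemma 42.7% of all genes were called (20.4% higher, 22.4% lower). There 4 sucrose synthase genes were higher and 6 lower (45.5% called, near the share of all genes), and 4 invertase genes were higher and 15 lower. Trimmed-mean scaling moved the log2 fold changes of well-expressed genes relative to FPKM by -0.24 in Anther against Lemma, -0.62 in Ovary against Lemma and 0.38 in Anther against Ovary, so FPKM and fold change need not rank 2 organs alike where the difference is small.

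A gene called higher in an organ than in both of the others was counted as enriched there. Among all genes tested 14.3% were enriched in Anther, 16.8% in Lemma and 9.55% in Ovary. Anther-enriched genes numbered 9 of the 22 for sucrose synthase and 8 of the 26 for invertase, Lemma-enriched genes 3 and 11, and no gene of either kind was enriched in Ovary by edgeR. At an unadjusted p under 0.05 with no minimum fold, 2 invertase genes were higher in Ovary than in both other organs, TraesCS4A02G486000 and TraesCS7A02G009100. DESeq2 also called no gene enriched in Ovary, and limma on log2(FPKM + 1) called 1, TraesCS7A02G009100, which edgeR called as well without Lemma replicate 1 or Ovary replicate 1.

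In Anther the sucrose synthase transcripts came mainly from the 2A/2B/2D proximal set. TraesCS2A02G168200 stood at 217, 191 and 159 FPKM in Anther, 41.6, 51.9 and 24.4 in Ovary and 8.51 and 9.64 in Lemma. The 3 organs did not overlap, with Anther highest and Lemma lowest. Its log2 fold change was 4.14 over Lemma (SE 0.36, adjusted p = 3.09e-05) and 2.64 over Ovary (SE 0.28, adjusted p = 0.000112). TraesCS2D02G175600, at 218, 160 and 171 FPKM in Anther against 11.2 ± 3.37 in Ovary (n = 3) and 1.95 ± 0.188 in Lemma (n = 2), had larger log2 fold changes, 6.31 over Lemma (adjusted p = 3.41e-06) and 4.40 over Ovary (adjusted p = 7.16e-06). TraesCS2B02G194200 reached 103 ± 9.99 FPKM in Anther, 7.58 ± 2.27 in Ovary and 1.17 ± 0.326 in Lemma. All 3 copies were also called higher in Ovary than in Lemma, by 2.83- to 4.25-fold. By mean summed FPKM of the set, the order of the 5 groups was Anther, Ovary, F1, Lemma and F5 (475, 58.1, 29.4, 12.2 and 1.40), though the ranges of Ovary (37.2 to 75.1) and F1 (15.1 to 43.9) overlapped.

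The 7A/7B/7D set went the other way and was the lowest in Anther. TraesCS7A02G158900 had 16.2, 9.82 and 12.1 FPKM in Anther against 57.4, 65.8 and 50.8 in Ovary and 45.2 and 37.1 in Lemma. Anther lay under every library of the other organs (log2 fold change -1.94 against Lemma, SE 0.22, adjusted p = 0.000136). By FPKM the Ovary libraries lay above both Lemma libraries, yet the log2 fold change of Ovary over Lemma under trimmed-mean scaling was -0.12 (adjusted p = 0.678), the scaling shift of that comparison being -0.62. TraesCS7B02G063400 gave the same picture at 9.21 ± 1.88 FPKM in Anther and 48.8 ± 3.65 in Ovary. TraesCS7D02G159800 was lower still in Anther, at 1.89, 1.37 and 1.71 FPKM against 33.9 ± 4.85 in Lemma (n = 2) and 41.2 ± 4.83 in Ovary (n = 3), a log2 fold change of -4.60 against Lemma (SE 0.19, adjusted p = 8.6e-07).

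The set that rose in F5 was modest in every organ. TraesCS7D02G036600 stood at 28.8, 28.6 and 27.3 FPKM in Anther, 12.3 and 9.65 in Lemma and 6.19, 8.54 and 6.81 in Ovary, without overlap between organs. It was called higher in Anther than in Lemma (log2 fold change 1.12, SE 0.16, adjusted p = 0.000536) and than in Ovary (2.36, SE 0.15, adjusted p = 8.19e-06), but without Lemma replicate 3 its value over Lemma was 0.97, short of 2-fold. Its 4A copy TraesCS4A02G446700, at 17.9 ± 2.00 FPKM in Anther, missed 2-fold over Lemma (0.97, adjusted p = 0.0132) and passed without Lemma replicate 1 (1.37), Anther replicate 1 (1.04) or Anther replicate 2 (1.04). Of the low-level genes, the distal group 2 set was enriched in Lemma at 0.387 to 0.471 FPKM, a level at which limma on log2(FPKM + 1) gave none of these 3 genes a 2-fold change. The call of TraesCS2D02G403600 in Anther against Lemma (log2 fold change -4.19, adjusted p = 0.0161) was lost without Lemma replicate 1 (0.0556), Anther replicate 1 (0.0534) or Anther replicate 3 (0.052), while the fold stayed about as large (-3.93 to -4.07), and it was -4.79 without Anther replicate 2. The call in Ovary against Lemma (-3.36, adjusted p = 0.0362) was lost without Lemma replicate 1 (0.113), Lemma replicate 3 (0.0871) or Ovary replicate 1 (0.088), at -3.24 to -3.47, and the value was -4.47 without Ovary replicate 2.

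**Figure D4:**
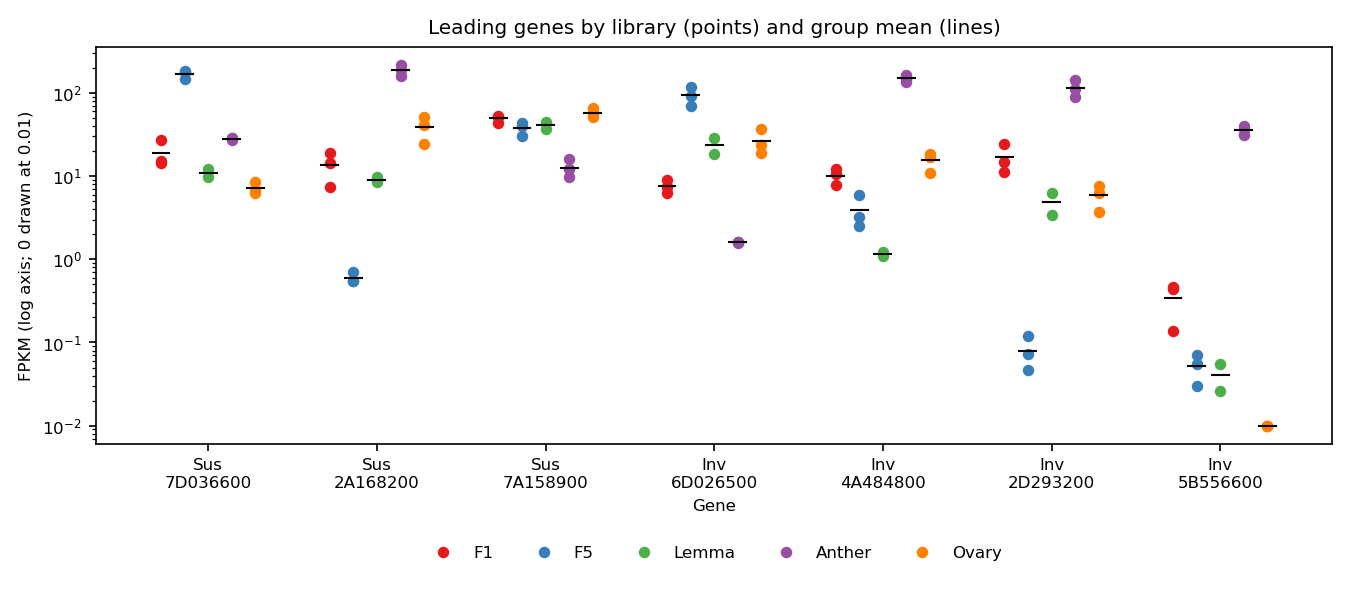
FPKM of 3 sucrose synthase (Sus) and 4 invertase (Inv) genes in each library, as points coloured by group with the group mean as a black line, on a log axis where 0 is drawn at 0.01. TraesCS7D02G036600 and TraesCS6D02G026500 peak in F5, TraesCS7A02G158900 is lowest in Anther, and the other genes peak in Anther, with TraesCS5B02G556600 at 0 in all Ovary libraries.

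Invertase transcripts of the Anther came from few genes. TraesCS4A02G484800 (4A:738886426-738890686, minus strand) stood at 136, 165 and 147 FPKM in Anther, 16.8, 18.6 and 11.1 in Ovary and 1.22 and 1.10 in Lemma. The 3 organs did not overlap. Its log2 fold change was 6.77 over Lemma (SE 0.31, adjusted p = 1.37e-06) and 3.64 over Ovary (SE 0.22, adjusted p = 7.36e-06). TraesCS7D02G010000 (7D:4792710-4797318, plus strand), with 117, 126 and 112 FPKM in Anther, 6.30 ± 1.34 in Ovary (n = 3) and 0.504 and 0.234 in Lemma, had the largest log2 fold change over Lemma in the cluster, 8.09 (SE 0.45, adjusted p = 3.33e-06) and 8.73 without Lemma replicate 1. TraesCS7A02G010200 reached 67.2 ± 8.22 FPKM in Anther, and these 3 genes were also called higher in Ovary than in Lemma (log2 fold changes of 2.60 to 3.48). Outside the cluster TraesCS2D02G293200 stood at 144, 112 and 89.1 FPKM in Anther, 7.67, 6.24 and 3.72 in Ovary and 3.43 and 6.23 in Lemma. It was higher in Anther than in Lemma by 4.33 on the log2 scale (SE 0.46, adjusted p = 9.54e-05), while Ovary and Lemma overlapped.

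Other cluster genes did not share this pattern. TraesCS7A02G009100 and TraesCS4A02G486000, the 2 that fell most in F5, were highest in Ovary among the organs, at 25.9, 32.1 and 40.0 FPKM and at 30.6, 33.8 and 31.1 FPKM. In Lemma they stood at 14.5 and 7.61 FPKM and at 9.58 and 6.45 FPKM, below every Ovary library. TraesCS4A02G486000 was called higher in Ovary than in Lemma (log2 fold change 1.37, SE 0.23, adjusted p = 0.00148), and TraesCS7A02G009100 was not (0.94, SE 0.29, adjusted p = 0.0264), although it passed 2-fold without Lemma replicate 1 (1.47) or Ovary replicate 1 (1.06). The order of the genes along the ends of 7A and 4A is mirrored, with TraesCS7A02G009100, TraesCS7A02G009200 and TraesCS7A02G010200 facing TraesCS4A02G486000, TraesCS4A02G485900 and TraesCS4A02G484800 on opposite strands. Members at mirrored places had like profiles across the organs, highest in Ovary, Lemma and Anther respectively. This was seen after the values and is given as a description. TraesCS7A02G009200 and TraesCS4A02G485900 were enriched in Lemma, at 11.6 ± 4.25 and 18.4 ± 5.20 FPKM (n = 2) against 4.56 ± 1.32 and 3.15 ± 0.390 in Anther (n = 3).

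A last Anther gene was nearly silent elsewhere. TraesCS5B02G556600 (5B:705052959-705056080, minus strand), which carries the invertase enzyme number and was singled out after its values were seen, stood at 31.3, 39.8 and 37.3 FPKM in Anther. It was at most 0.468 FPKM in any other library and had 0 counts in all 3 Ovary libraries. Anther was thus at least 8630-fold higher than Ovary when the Ovary total is set to 3 counts over the group, a bound that covers counting error only. Over Lemma the log2 fold change was 9.47 (SE 0.34, adjusted p = 4.52e-06). The group 2 invertase set was Anther-enriched as well, led by TraesCS2B02G403000 at 10.6 ± 0.975 FPKM in Anther against 0.185 ± 0.0588 in Ovary (n = 3) and 1.52 ± 0.967 in Lemma (n = 2).

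The group 6 invertase cluster was high in Lemma and lowest in Anther. Summed over 11 genes it stood at 126 and 177 FPKM in Lemma, 41.7 to 79.5 in Ovary and 6.14 to 6.26 in Anther. All 11 genes were called lower in Anther than in Lemma, the call of TraesCS6D02G026300 (0.942 ± 0.0169 FPKM in Lemma, log2 fold change -3.31, adjusted p = 0.0362) being lost without Lemma replicate 1 (adjusted p = 0.0931), Lemma replicate 3 (0.0978), Anther replicate 1 (0.0978), Ovary replicate 1 (0.0503) or Ovary replicate 2 (0.0525). In those fits its log2 fold change stayed at -2.88 to -3.34, and without Anther replicate 3 it was called at -5.94 (adjusted p = 0.00204). TraesCS6B02G031700 led in Lemma with 22.8 and 39.2 FPKM, against 2.14, 2.77 and 3.37 in Ovary and 0.773, 1.16 and 0.595 in Anther. Its log2 fold change was -5.44 in Anther against Lemma (SE 0.36, adjusted p = 7.57e-06) and -4.12 in Ovary against Lemma (SE 0.34, adjusted p = 3.09e-05). The 6D gene TraesCS6D02G026500 was not called in Ovary against Lemma, at 19.0, 24.0 and 36.8 FPKM beside 18.4 and 29.0 in Lemma. Its libraries in these organs overlapped (log2 fold change -0.46, SE 0.27, adjusted p = 0.182), and both lay above the 1.61, 1.60 and 1.57 FPKM of Anther. In total 8 of the 11 genes were called lower in Ovary than in Lemma. Over all genes 26.7% were lower in Anther than in Lemma and 22.4% lower in Ovary than in Lemma. As neighbouring duplicates and homoeologs with an uncertain split of reads, the 11 genes are not separate observations.

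The shares of the homoeologs, here the percent of the summed FPKM of a set in each library, were followed in 4 sucrose synthase sets, and the copy with the highest mean share changed between groups in 3 of them. In the 4A/4B/4D sucrose synthase set the 4A copy made up 71.6% ± 0.838 in F5 and 60.0% in Lemma (n = 2), 42.3% ± 2.77 in F1, 35.8% ± 1.33 in Ovary and 19.8% ± 0.426 in Anther (SD, n = 3). The 4D copy ran the opposite way, from 22.8% in F5 to 73.1% in Anther, and no library of F5 overlapped with a library of Anther. Behind these shares the 4A copy varied little, with group means of 12.2 to 21.6 FPKM, and the 4D copy widely, from 3.82 to 65.1 FPKM. In the 7A/7B/7D set the 7D copy held 23.0% to 31.9% in 4 groups but 7.09% ± 0.616 in Anther, and the 7A copy led except in F5, where 7B held 40.5% ± 1.55 and 7A 36.5% ± 0.876. In the 2A/2B/2D proximal set the 2A copy held 74.3% in Lemma and 67.3% in Ovary, and shared Anther with 2D at 39.7% and 38.5%. In F5, where the whole set summed to 1.31 to 1.46 FPKM, the 2D copy held 9.04% ± 5.20, and 2B (47.6% ± 9.24) and 2A (43.3% ± 9.00) did not differ beyond their spread. In the 7A/7D/4A-end set the 7D copy led every group, with 55.3% to 59.3% in 4 groups and 75.1% in Ovary, and the 7A copy held 2.15% to 11.1%. The 7D share was close in F1 (59.3%) and F5 (58.8%) although every copy rose.

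**Figure D5:**
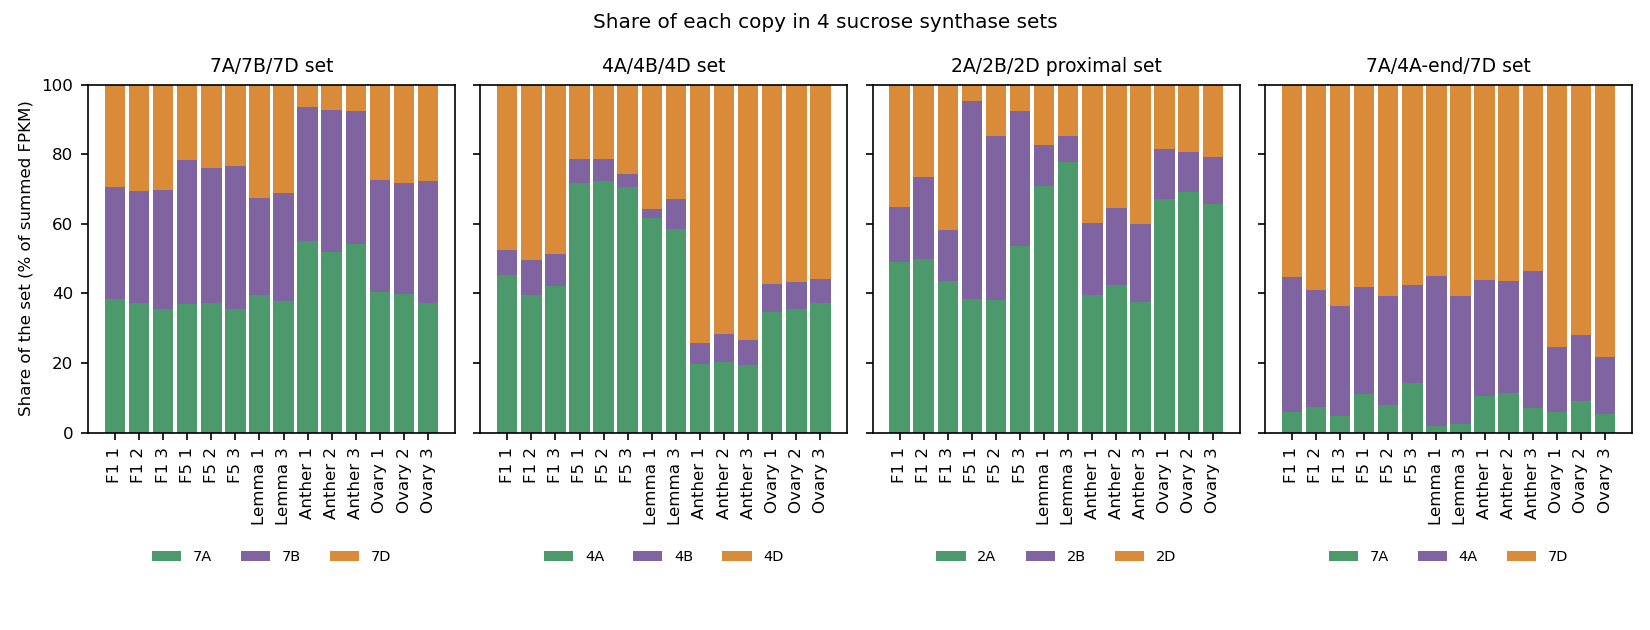
Share of each homoeolog in the summed FPKM of 4 sucrose synthase sets, in percent, stacked for each library. The 4D copy of the 4A/4B/4D set fills most of the bar in Anther and the 4A copy in F5, while the 7D copy of the 7A/7B/7D set shrinks to 7.09% on average in Anther.

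F5 was set beside the organs because several genes were higher there than in any of them. Of genes with at least 1 FPKM in a group, 12.4% had their lowest F5 library above every organ library, and 4.66% had their lowest F1 library above them. For sucrose synthase these counts were 7 of 18 in F5 and 0 in F1, and for invertase 9 of 24 and 0. The 9 invertase genes were all in the group 6 cluster, whose other 2 genes, TraesCS6B02G031500 and TraesCS6B02G031600, overlapped with Lemma. The 7 sucrose synthase genes were the 3 of the 7A/7D/4A-end set, the 3 of the distal group 2 set and TraesCS6D02G403800, singled out after its values were seen, at 3.88 ± 1.64 FPKM in F5. The distal group 2 genes reached 1 FPKM only in F5 (means of 1.06 to 1.20). So did TraesCS6D02G026300 of the group 6 cluster (12.0 in F5, 0.942 in Lemma). These genes entered the counts through the group in which they were then counted as high. Florets and organs were not fitted together for this, and no test was made.

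The other genes of sucrose metabolism were counted in the same fit of the florets. Of 15 sucrose-phosphate synthase genes, whose products make sucrose, 1 was higher and 3 were lower in F5. Of 6 sucrose-phosphate phosphatase genes, which complete that synthesis, 1 was lower. Hexokinases, which phosphorylate the glucose released by invertase, gave 1 lower of 25 tested (4.0%), the 1 fructokinase was not called, and 5 UDP-glucose pyrophosphorylase genes gave 1 higher and 1 lower (40.0%). Sucrose-phosphate synthase genes were thus called in 26.7% of cases and sucrose-phosphate phosphatase genes in 16.7%, beside 24.1% of all genes. The neutral and alkaline invertases, which work in the cytosol and organelles, do not carry the ontology term used to choose the members. The 21 genes given the ontology term glycopeptide alpha-N-acetylgalactosaminidase, taken here to stand for this family, gave 4 higher and 3 lower (33.3%). That they belong to the family was not checked. SWEET and sucrose transporter genes, which move sugars across membranes, gave 11 higher and 11 lower of 65 tested (33.8%). Invertase and pectinesterase inhibitor genes, a family of small proteins of which some block acid invertase, were taken by the ontology term for enzyme inhibitors. Of 112 tested (of 257 in the table), 6 were higher and 57 lower in F5 (56.2%), and the median log2 fold change was -2.07. Genes that passed the filter on low counts only through F1 had to be lower in F5, and their number was not counted.

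Of the genes of the inhibitor list tested in the organs, most were higher in Anther. Of 157 tested, 108 were higher and 19 lower in Anther than in Lemma (80.9% called, beside 51.9% of all genes), and 99 higher and 36 lower in Anther than in Ovary (86.0% beside 43.5%). The median log2 fold changes were 9.08 and 9.48. A gene could pass the filter on low counts through Anther alone, and 100 of the 257 genes were not tested. Genes that passed only through Anther had to be higher there, and their number was not counted. In Ovary against Lemma the counts were 31 and 13 (28.0% called, beside 42.7% of all genes), with a median log2 fold change of 0.0. Genes that passed the filter only through Anther could hardly be called here, so this share is not read as a trait of the list. The list mixes inhibitors of invertase with those of pectin methylesterase, which are common in pollen, and the annotation does not separate them. Hexokinase genes gave 9 higher and 3 lower of 25 in Anther against Lemma, a share of 48.0% near that of all genes, and 8 higher and 10 lower in Anther against Ovary (72.0% beside 43.5%). SWEET and sucrose transporter genes gave 19 higher and 34 lower of 66 in Anther against Lemma (80.3% beside 51.9%), and 5 higher and 33 lower in Ovary against Lemma (57.6% beside 42.7%). For sucrose-phosphate synthase, 7 of 15 were called in Anther against Ovary, all higher in Anther, and the share called (46.7%) was near the 43.5% of all genes.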

How the data were processed

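Per the labels' protocols, RNA was isolated with Trizol, and only samples with an RNA integrity number above 7.0 were made into libraries. The deposited table gives the authors' raw counts per gene and their FPKM for 100591 genes. The submitters' processing notes name Bowtie 0.12.2 and the build mm8, a mouse build that cannot hold wheat genes, so the sources used here do not give the aligner, counter or build behind these wheat values. The RefSeq gene table at hand shared 0 gene IDs with the files and was not used, and no sequences are shown.

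Counts were scaled by TMM, filtered with filterByExpr and fitted with robust quasi-likelihood models in edgeR 4.0.16 (R 4.3.3). The floret libraries were fitted alone and the organ libraries together, which gives the 2 Lemma libraries the spread of all organs. Tests were two-sided, adjusted over all genes tested. A gene was called at an adjusted p under 0.05 and at least 2-fold. The SE is the size of the log2 fold change over the root of the F statistic. Group values are means and SDs of FPKM. Replicates of a group differed by more than sampling noise (chi-square per degree of freedom of 16.2 to 112), so counting error was small beside that spread for abundant genes. This does not tell separate plants from libraries prepared separately from the same RNA.

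The members and lists were chosen with earlier results of these data known. Genes were named by rule within each enzyme kind: the 5 highest by mean of group means, the 2 that rose and the 2 that fell most in F5 with at least 1 FPKM, the 2 highest enriched in each organ, and the homoeologs or cluster partners of these. The 6 genes under 1 FPKM in every group were counted and not named. Genes named outside the rule are marked in the text as singled out after their values were seen. Alternatives were other scaling, no filter, DESeq2 1.42.0, limma 3.58.1 on log2(FPKM + 1) or log2(FPKM + 0.1), 1 fit of all groups, a replicate block, no minimum fold, FPKM rescaled to a fixed total per library, and leaving out each replicate.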

Additional observations from a re-analysis of the deposited data

How the results depend on the processing

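No alternative that was run gave a call opposite to one reported. Over the genes with at least 1 FPKM and all settings, 1882 calls were kept, 72 were lost and 33 were gained. With limma on log2(FPKM + 1), which shrinks the change of low genes, calls for sucrose synthase came to 11 in Anther against Lemma, 6 in Ovary against Lemma and 9 in Anther against Ovary, in place of 17, 10 and 15. Leaving out each replicate gave 9 to 14 sucrose synthase and 19 to 21 invertase calls in F5 against F1, 14 to 17 and 22 to 23 in Anther against Lemma, 8 to 10 and 19 to 20 in Ovary against Lemma, and 14 to 16 and 17 to 19 in Anther against Ovary. Without 1 Lemma library the other is assumed to vary like the other organs.

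Same-numbered libraries did not deviate together (correlations of -0.182 to 0.0531 in the florets and -0.11 to 0.0351 in the organs), so the numbers were not taken to pair samples. A replicate block gave 13 sucrose synthase and 20 invertase calls in F5 against F1, 13 and 22 in Anther against Lemma, 8 and 19 in Ovary against Lemma, and 14 and 16 in Anther against Ovary. With the FPKM of each library rescaled to a fixed total (TPM), the sums change unit: sucrose synthase 427 in F1, 765 in F5, 283 in Lemma, 1080 in Anther and 499 in Ovary, and invertase 227, 970, 366, 913 and 294. The invertase libraries of F5 (766 to 1159 TPM) enclosed those of Anther (852 to 956), as they did by FPKM.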
